A study of Mus musculus with 14 samples.

Results

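The genes described here are 10 genes that bind, carry, store or sense iron, chosen by name: *Trf*, *Ltf*, *Lcn2*, *Tfrc*, *Fth1*, *Ftl1*, *Slc40a1*, *Slc11a2*, *Ireb2* and *Aco1*. All 10 were found among the 20550 genes listed in each of 2 total RNA-seq samples of mammary tissue on day 10 of lactation (L10). Both samples carried the same genotype, labelled WT_wTbrg4, which is called wt/Wap-Tbrg4 here: 1 wild-type allele, and 1 Wap-Tbrg4 allele in which a CRISPR-Cas9 deletion joined the first exons of *Wap* and *Tbrg4* and placed *Tbrg4* under the *Wap* super-enhancer and promoter. The age of the animals and the number of founders of the line are not given in the sources used here. RNA-seq of other genotypes and the 12 ChIP-seq samples of the series were not analysed here, so the values describe lactating tissue of this 1 genotype and are no measure of what the deletion does.

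Values are FPKM, fragments scaled to the length of the gene and by a factor for each library, so that genes within a sample can be set side by side. They were deposited for exons, which mostly represent mature mRNA, and for introns, which represent RNA that has not yet been spliced. Each value is given for replicate 1 and replicate 2, taken as 1 mouse each, and errors are SDs over these 2 samples. With 2 samples of a single group no test between groups was possible. Summed over genes, exons reached 853174 FPKM in replicate 1 and 1788340 FPKM in replicate 2, of which the 7 milk protein genes (the caseins *Csn1s1*, *Csn1s2a*, *Csn1s2b*, *Csn2* and *Csn3*, with *Lalba* and *Wap*) held 65.7% and 84.4%. The labelled tissue was checked against its markers: all 7 markers of secretory epithelium averaged at least 10 FPKM. Markers of other cells also had values, with 4 adipocyte markers summing to 600.4 and 683.9 FPKM, 3 endothelial markers to 46.1 and 40.1 FPKM and 4 myoepithelial markers to 43.4 and 32.5 FPKM. Most of the adipocyte sum was *Fabp4* (501.7 and 564), with *Adipoq* at 85.3 and 113, *Plin1* at 7.8 and 2.6 and *Lep* at 5.6 and 4.3. Most of the small values on short introns were whole multiples of 1 step, taken as a single read, from which the exon reads were estimated at about 12000000 in replicate 1 and 11200000 in replicate 2.

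Iron is carried between cells by transferrin, taken up through the transferrin receptor, stored in ferritin and released by ferroportin. Inside cells, the amounts of several of these proteins are set after transcription: the iron regulatory proteins bind a short RNA hairpin, the iron-responsive element, and in iron-poor cells block the translation of messages that carry it in the 5' UTR and stabilize the receptor message that carries it in the 3' UTR. The lactating gland takes up iron from plasma and secretes iron-binding proteins into milk, and the milk of rodents is rich in transferrin. A level of mRNA therefore does not give the level of protein for the genes that carry the element.

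The hairpins themselves are shown first, because the proteins that bind this element and several messages known to carry it are among the 10 genes. A match to the pattern is a description of the sequence and no measure of binding. The pattern searched was a C, 5 further bases of any kind, the loop CAGTGN and again 5 bases of any kind, on the transcribed strand of the UTRs of curated RefSeq transcripts on GRCm38, the assembly also called mm10. The 5 bases before the loop had to pair with the 5 after it, G with T allowed. The loop is written in capitals, and 6 flanking bases stand before and 7 after the pattern.
Fth1, 5' UTR, chr19:9982732-9982761, plus strand: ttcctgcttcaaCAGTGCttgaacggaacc
Ftl1, 5' UTR, chr7:45459778-45459807, minus strand: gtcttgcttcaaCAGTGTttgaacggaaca
Slc40a1, 5' UTR, chr1:45925464-45925493, minus strand: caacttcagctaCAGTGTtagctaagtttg
Tfrc, 3' UTR, chr16:32631219-32631248, plus strand: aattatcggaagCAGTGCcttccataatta
Tfrc, 3' UTR, chr16:32631598-32631627, plus strand: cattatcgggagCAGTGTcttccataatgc
Tfrc, 3' UTR, chr16:32631663-32631692, plus strand: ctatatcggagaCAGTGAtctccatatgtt
Tfrc, 3' UTR, chr16:32631710-32631739, plus strand: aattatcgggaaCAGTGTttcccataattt
Slc11a2, 3' UTR, chr15:100395152-100395181, minus strand: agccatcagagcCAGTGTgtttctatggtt

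The pattern with all 5 pairs was present in the 5' UTR of 3 of the 10 genes (*Fth1*, *Ftl1* and *Slc40a1*), compared with 21 of 21000 protein-coding genes (0.10%), and in the 3' UTR of *Tfrc* alone among the 10, compared with 106 genes (0.505%). *Tfrc* held 4 copies within its 3' UTR. The *Slc11a2* sequence forms 4 of the 5 pairs and is shown for that reason apart from the count. It was present in 2 of the 3 curated *Slc11a2* transcripts. No match with at least 4 of the 5 pairs was found in the UTRs of *Trf*, *Ltf*, *Lcn2*, *Ireb2* or *Aco1*. This says only that these letters with that pairing are not in those windows.

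The first and the last of the 10 genes were 122211-fold apart in mean exon FPKM. The order by mean exon FPKM was *Trf*, *Ltf*, *Fth1*, *Lcn2*, *Ftl1*, *Tfrc*, *Aco1*, *Ireb2*, *Slc11a2* and *Slc40a1*. Of the 10 genes, 6 had a mean of at least 100 FPKM, which 1.02% of all genes reached, and 8 had a mean of at least 10 FPKM, which 15.2% reached. Neighbors in this order were counted as apart where both samples of one gene lay above both samples of the other, and by this measure 4 of the 9 steps were not resolved: *Ltf* against *Fth1*, *Fth1* against *Lcn2*, *Ftl1* against *Tfrc*, and *Aco1* against *Ireb2*. Between *Fth1* and *Lcn2* the order was the same in both mice, and in the other 3 unresolved pairs it turned from one mouse to the other.

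**Figure D1:**
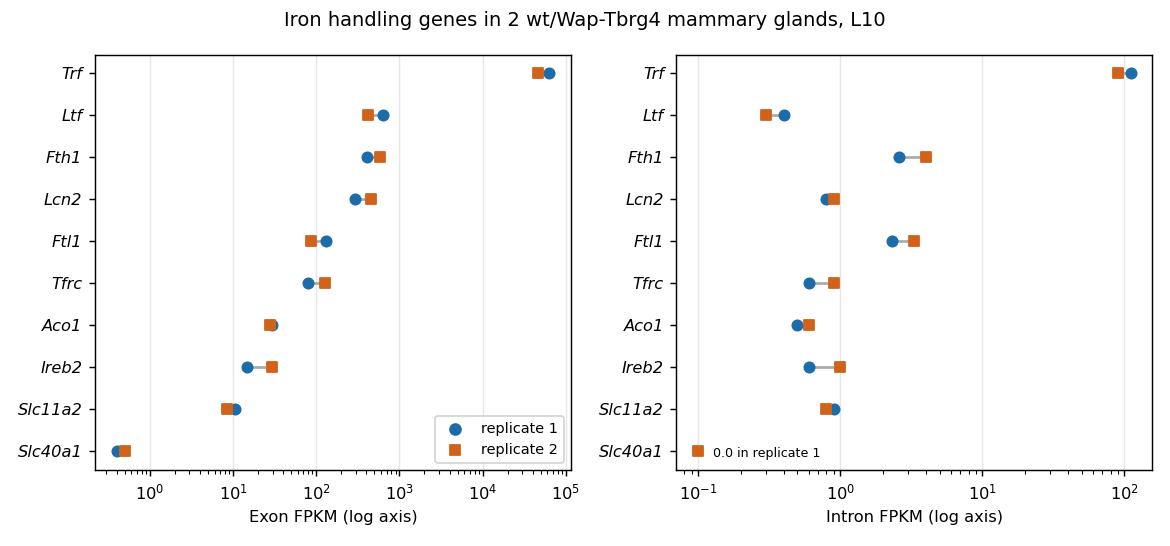
Exon FPKM (left) and intron FPKM (right) of the 10 iron handling genes on log axes, with a circle for replicate 1 and a square for replicate 2 of wt/Wap-Tbrg4 mammary tissue. *Trf* stands apart on both axes (63333 and 46657 for exons, 110.8 and 90.7 for introns), *Slc40a1* is lowest on both, and the spread between the mice is small against the range between genes.

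*Trf* encodes transferrin, the iron carrier of plasma, which mammary epithelium also secretes into milk. It lies on chr9:103208876-103230286, minus strand, with 17 exons and 2332 bp of exon sequence. On exons, replicate 1 had 63333 FPKM and replicate 2 had 46657 FPKM, averaging 54995 ± 11791 (SD, n = 2). It ranked 4 of all genes in replicate 1, 8 in replicate 2 and 6 by the mean. Replicate 1 was the higher, by 1.36-fold, and *Trf* was among the highest genes in both.

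*Trf* made up 7.42% of the summed exon FPKM in replicate 1 but 2.61% in replicate 2, averaging 5.02% ± 3.40 (SD, n = 2). Against all genes other than the 7 milk protein genes, its share was 21.6% and 16.7%, averaging 19.2% ± 3.50 (SD, n = 2). Relative to its size, the share of the whole differed more between the mice than the share without the milk protein genes. In percentage points the SDs were alike (3.40 and 3.50). In estimated reads, *Trf* took 12.3% of those on exons in replicate 1 and 4.90% in replicate 2, so that its counting error is small beside the difference between the samples.

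The genes next to *Trf* in mean exon FPKM were the caseins *Csn1s1* (99210) and *Csn1s2b* (76129) above it, and *Glycam1* (52877), a mucin-like milk protein, and the casein *Csn3* (39785) below it. On the deposited scale all 4 were higher in replicate 2, by 3.13-fold, 2.94-fold, 1.23-fold and 4.13-fold, whereas *Trf* was lower there. As a share of summed exon FPKM, *Glycam1* was lower in replicate 2 as well (5.57% and 3.26%), and the caseins named were higher. With 2 samples no correlation across samples can be given, and nearness in level is the only likeness described. *Trf* exceeded the sum of the other 9 iron handling genes 39.7-fold in replicate 1 and 26.8-fold in replicate 2.

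*Ltf* encodes lactoferrin, the iron-binding protein of milk and of neutrophil granules that shares its ancestry with transferrin. It lies on chr9:111019292-111042766, plus strand, on the same chromosome as *Trf* and *Ireb2*. Exons of *Ltf* had 628.4 FPKM in replicate 1 against 419.0 FPKM in replicate 2, which averages 523.7 ± 148 (SD, n = 2) and ranks 40. *Trf* exceeded *Ltf* 100.8-fold and 111.4-fold, a mean of 106.1 ± 7.47 (SD, n = 2), the smallest relative spread among the 7 ratios between these genes that were formed. The coding sequences of *Trf* and *Ltf* were identical at 65.8% of aligned bases, and their longest identical run was 23 bases.

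*Lcn2* encodes lipocalin 2, which binds the iron-carrying siderophores of bacteria and is also known as an acute phase protein. It lies on chr2:32384637-32387739, minus strand. Replicate 1 had 293.0 FPKM on its exons and replicate 2 had 455.3 FPKM, for an average of 374.2 ± 115 (SD, n = 2) and rank 56. It was the higher in replicate 2, unlike *Trf* and *Ltf*, so that the ratio of *Trf* to *Lcn2* was 216.2 in replicate 1 and 102.5 in replicate 2.

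*Ltf* and *Lcn2* are both granule genes of neutrophils, so the neutrophil markers were read beside them. Of 9 neutrophil markers, 1 reached a mean of 1 FPKM (*S100a8*, 0.5 and 2.5) and 5 were listed at 0.0 on exons in both samples (*Mpo*, *Elane*, *Ly6g*, *Camp* and *Mmp8*). The *S100a8* values rest on only about 1.96 and 4.93 estimated reads. The neutrophil markers summed to 1.5 FPKM in replicate 1 and 3.3 FPKM in replicate 2. A value of 0.0 in these files is not read as absence, since *Acta2*, an actin of myoepithelium, is also listed at 0.0, and the part of neutrophils in the *Ltf* and *Lcn2* levels was not tested. In such bulk tissue, fewer cells of a type and less RNA per cell cannot be told apart. The liver also makes transferrin, and of 4 hepatocyte markers *Alb* was at 94.4 and 194.2, *Apoa1* at 13.9 and 8.7, *Ttr* at 6.0 and 7.4 and *Serpina1a* was listed at 0.0 in both. *Alb* and *Ttr* were higher in replicate 2, and *Apoa1*, like *Trf*, was lower there. The part of other cells in the *Trf* level was not tested.

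*Tfrc* encodes the transferrin receptor, through which cells take up iron-loaded transferrin. It lies on chr16:32608896-32632794, plus strand, and its 3' UTR holds the 4 hairpins printed above. Its exons had 79.0 FPKM in replicate 1 and the higher 126.9 FPKM in replicate 2, averaging 103.0 ± 33.9 (SD, n = 2), rank 203. Carrier exceeded receptor by far, with a *Trf* to *Tfrc* ratio of 801.7 in replicate 1 and 367.7 in replicate 2. Red cell precursors are rich in this receptor. Of the erythroid markers, the globins *Hbb-bs* (264.5 and 287.3) and *Hba-a2* (55.0 and 24.1) were well above 10 FPKM, *Alas2* was at 6.7 and 7.5 and *Slc4a1* at 0.2 and 0.1. Their part in the *Tfrc* level was not tested.

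*Fth1* and *Ftl1* encode the heavy and light chains of ferritin, the heavy chain oxidizing iron for storage. *Fth1* lies on chr19:9980600-9985111, plus strand, and *Ftl1* on chr7:45457944-45459886, minus strand. On exons, *Fth1* had 405.0 FPKM in replicate 1 and had 585.2 FPKM in replicate 2, averaging 495.1 ± 127 (SD, n = 2), rank 44. *Ftl1* had 132.6 and 87.4, averaging 110.0 ± 32 (SD, n = 2), rank 190. The chains differed between the mice in opposite directions, so that the *Fth1* to *Ftl1* ratio was 3.05 in replicate 1 and 6.70 in replicate 2, while *Fth1* was the higher in both. With a fit on GC content removed the log2 difference between the mice was 0.79 for *Fth1* and 0.024 for *Ftl1*, so the opposite directions did not hold.

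The *Ftl1* level is uncertain, because 4 other places in the genome matched at least 50% of its coding sequence with no less than 95% identity, the closest with 99.6%, and reads shared between such copies could be left uncounted or split. Of the 9580 genes that averaged 1 FPKM or more and had their coding sequence placed, 8.03% had such a copy, and none of the other 9 iron handling genes did. *Fth1* had 1 more distant copy, at 92.6% identity. How such reads were counted is not given in the sources used here, and the part of these copies in the *Ftl1* values was not tested. The ratio of *Tfrc* to *Fth1*, the messages with the hairpin at opposite ends, was 0.195 and 0.217 in the 2 mice.

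*Slc11a2* encodes DMT1, the importer that moves ferrous iron out of endosomes, and *Slc40a1* encodes ferroportin, the iron exporter of the cell surface. *Slc11a2* lies on chr15:100387898-100423055 and *Slc40a1* on chr1:45908070-45925594, each on the minus strand. *Slc11a2* exons had 10.6 FPKM in replicate 1 and 8.5 FPKM in replicate 2, averaging 9.55 ± 1.48 (SD, n = 2), rank 3238. *Slc40a1* was at 0.4 and 0.5, averaging 0.450 ± 0.0707 (SD, n = 2), rank 11063, the only one of the 10 below 1 FPKM. *Slc11a2* was 26.5-fold and 17-fold above *Slc40a1*.

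The depth behind *Slc40a1* is small. Its values correspond to about 13 reads in replicate 1 and 9 in replicate 2, with exact 95% Poisson intervals of 6.92 to 22.2 and 4.12 to 17.1 reads, which cover counting error only. On the FPKM scale these are 0.205 to 0.659 and 0.242 to 1.00, so a difference between the mice was not detectable at this depth, while the gap to *Slc11a2* is far outside both intervals. Macrophages are the cells best known for ferroportin. The 6 macrophage markers summed to 59.2 FPKM in replicate 1 and 28.7 in replicate 2, with *C1qa* highest at 44.8 and 19.6, and 5 of the 6 were at or above 1 FPKM on average, while *Marco* was listed at 0.0 in both samples. Their part in the *Slc40a1* level was not tested.

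*Aco1* and *Ireb2* encode the iron regulatory proteins 1 and 2, which bind the hairpins. The former also serves as the cytosolic aconitase when it holds an iron-sulfur cluster. *Aco1* lies on chr4:40143265-40199009 and *Ireb2* on chr9:54863755-54912534, both on the plus strand, and their coding sequences were identical at 65.2% of aligned bases. *Aco1* exons had 29.8 FPKM in replicate 1 and 27.6 FPKM in replicate 2, averaging 28.7 ± 1.56 (SD, n = 2), rank 975. *Ireb2* was at 14.9 and 29.5, averaging 22.2 ± 10.3 (SD, n = 2), rank 1341. These were the smallest and the largest SDs of the 10 genes relative to the mean, 5.42% and 46.5%. *Aco1* was 2-fold above *Ireb2* in replicate 1 and the genes were close in replicate 2 (0.936-fold), so their order was not resolved.

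Unspliced RNA gave another order. The intron FPKM of *Trf* was 110.8 in replicate 1 and 90.7 in replicate 2, averaging 100.8 ± 14.2 (SD, n = 2), rank 9 of all genes. *Fth1* (2.6 and 4.0) and *Ftl1* (2.3 and 3.3) followed at ranks 206 and 260. *Lcn2*, *Slc11a2*, *Ireb2*, *Tfrc* and *Aco1* lay between 0.5 and 1.0 in both mice, *Ltf* was at 0.4 and 0.3, and *Slc40a1* was listed at 0.0 and 0.1. *Ltf*, second of the 10 by mean exon FPKM, was thus second to last by introns. Its exon place is not settled, since in replicate 2 *Ltf* (419.0) lay below *Fth1* (585.2) and *Lcn2* (455.3).

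The ratio of exon to intron FPKM was highest for the 3 secreted iron binders. *Ltf* had a ratio of 1571 in replicate 1 and 1397 in replicate 2, rank 4 among the 9140 genes with an exon mean of at least 1 FPKM and an intron value above 0 in both mice. *Trf* had 571.6 and 514.4, rank 20, and *Lcn2* 366.3 and 505.9, rank 28. The median over these genes was 15.3. Rounding of the introns to 1 decimal leaves *Ltf* between 1396 and 1796 in replicate 1 and between 1197 and 1676 in replicate 2, which keeps it above the others. The *Lcn2* introns rest on only about 18 and 10 estimated reads, so its ratio and rank also carry counting error.

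*Fth1* had a ratio of 155.8 and 146.3, and *Tfrc* 131.7 and 141.0. The ratio of *Aco1* was 59.6 and 46.0, of *Ftl1* 57.7 and 26.5, and of *Ireb2* 24.8 and 29.5. *Slc11a2* was lowest, at 11.8 and 10.6. It was the only one of the 9 genes with a ratio in both mice to lie below the median of 15.3 over the 9140 genes. Over the 3020 of these genes with a mean of at least 10 FPKM the median was 28.9. *Ireb2* in replicate 1 and *Ftl1* in replicate 2 did not reach that value either. *Slc40a1*, with an intron value of 0.0 in replicate 1, had none there. The exon gap between *Trf* and *Ltf* (100.8-fold and 111.4-fold) was smaller than the intron gap (277.0-fold and 302.3-fold), whereas *Trf* exceeded *Lcn2* 138.5-fold and 100.8-fold on introns. Estimated intron reads were few for *Lcn2* (about 18 and 10) and for *Ftl1* (about 22 and 16), so these values are coarse.

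**Figure D2:**
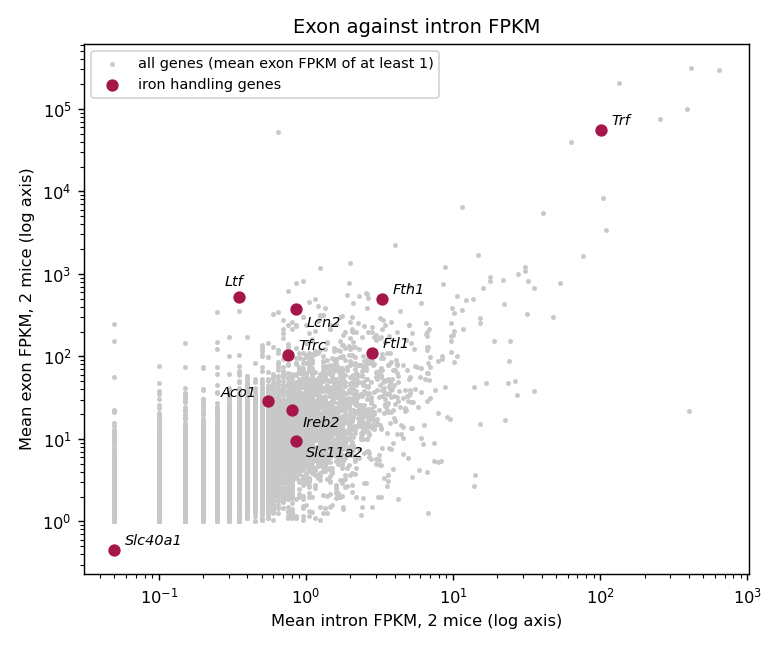
Mean exon FPKM against mean intron FPKM over the 2 mice on log axes, with all genes of at least 1 exon FPKM and some intron signal in grey and the iron handling genes in red. *Trf* sits with the highest genes on both axes, *Ltf* lies far above genes of like intron FPKM, and *Slc11a2* lies within the bulk. The vertical stripes come from the rounding of introns to 1 decimal.

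The 2 mice share genotype and stage, and the difference between them is described as the log2 ratio of FPKM + 1, replicate 2 against replicate 1, which understates changes of low genes. Among the 9845 genes that averaged 1 FPKM or more on exons, 5.90% differed by more than 2-fold on the deposited scale, and of the 9 iron handling genes in this set 0 did. *Ireb2* came closest, with a log2 ratio of 0.94. *Tfrc* (0.68), *Lcn2* (0.63) and *Fth1* (0.53) were also higher in replicate 2. *Ftl1* (-0.60), *Ltf* (-0.58), *Trf* (-0.44), *Slc11a2* (-0.29) and *Aco1* (-0.11) were lower there. The median over the 9 genes was -0.11, compared with -0.08 over all genes tested. These calls and directions depend on the scale. As shares of summed exon FPKM, each of the 9 was lower in replicate 2. *Trf* (7.42% and 2.61%), *Ltf*, *Ftl1*, *Slc11a2* and *Aco1* were lower there by more than 2-fold. The summed exon FPKM was itself more than 2-fold larger in replicate 2. A gene of equal FPKM in both mice therefore also falls by more than 2-fold on this scale, so these calls are not particular to the iron handling genes. With the 7 milk protein genes left out of the sum, *Ireb2*, *Tfrc*, *Lcn2* and *Fth1* were again higher there, *Ireb2* by more than 2-fold (0.00509% and 0.0105%). How many of all genes pass 2-fold as shares, with or without the milk protein genes, is not given here. For introns, 0 of the 8 iron handling genes with a mean of at least 0.5 FPKM differed by more than 2-fold, compared with 6.52% of 4220 genes.

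This difference moved with the GC content of the exons across all genes (Spearman rho of -0.658 across 9725 genes, which are not independent replicates). *Ireb2* (39.1% GC) and *Tfrc* (41.4%) are the most GC-poor of the 9 and *Ftl1* (58.1%) the most GC-rich, and they had the highest, second highest and lowest log2 ratios. With a lowess fit on GC content removed, *Ftl1* went from -0.60 to 0.024, *Tfrc* from 0.68 to 0.36 and *Ireb2* from 0.94 to 0.51. *Lcn2* and *Fth1* lie on the other side of this trend. Their log2 ratios grew from 0.63 to 0.93 and from 0.53 to 0.79, at percentiles 98.5 and 97.3 of the 9725 genes. *Ltf* (-0.47) stayed lower in replicate 2 and *Trf* (-0.21) and *Slc11a2* (-0.19) moved toward 0. *Aco1* went from -0.11 to 0.022, so that it and *Ftl1* were the 2 genes whose sign changed. After the fit 1.91% of genes and 0 of the 9 differed by more than 2-fold.

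**Figure D3:**
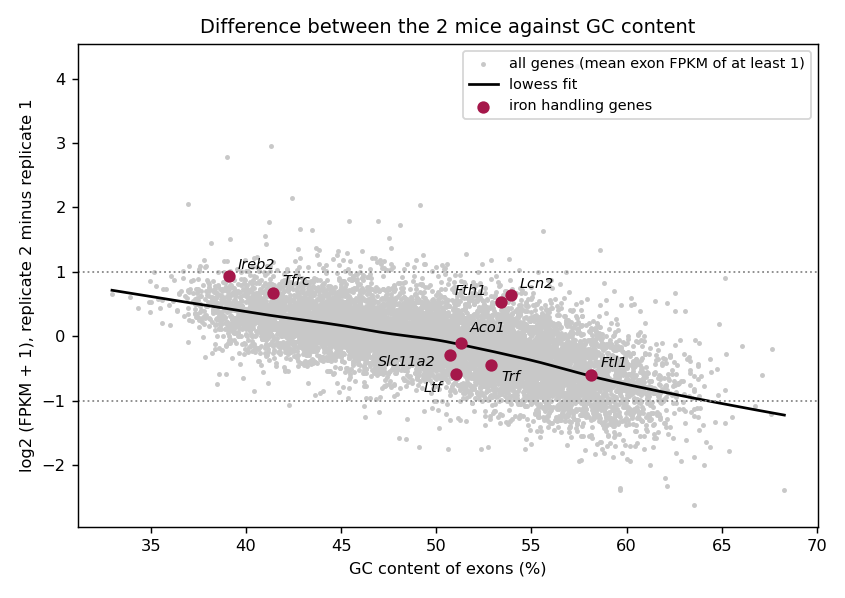
Log2 difference in exon FPKM + 1 between replicate 2 and replicate 1 against the GC content of exons, with all genes in grey, the lowess fit as a black line, 2-fold limits as dotted lines and 9 iron handling genes in red. *Ireb2*, *Tfrc* and *Ftl1* follow the slope of the cloud, whereas *Lcn2* and *Fth1* lie above the line by 0.93 and 0.79.

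Beyond the 10 genes, 58 other genes of iron and heme handling were listed in 7 groups, of which 56 had values. A mean of at least 1 FPKM was reached by 47 of them and of at least 10 FPKM by 16. Between the mice, 1 was more than 2-fold higher in replicate 2 and 1 more than 2-fold lower, against backgrounds of 1.08% and 4.82% of all genes. Both belong to the delivery of cytosolic iron: *Pcbp2*, an iron chaperone and RNA-binding protein, was at 8.8 and 24.3, and *Bola2*, which partners a glutaredoxin, was at 32.1 and 12.8. With the GC fit removed, the log2 ratio of *Pcbp2* was 1.33 and that of *Bola2* -0.56.

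Among 10 genes of iron uptake, 7 reached 1 FPKM and *Slc39a8*, a divalent metal importer known for zinc, manganese and iron, was by far the highest at 223.8 and 289.1. It thus stood above *Tfrc* in both mice. *Slc39a14*, its close relative, was at 34.3 and 43.6, and the ferrireductases *Steap4* (14.2 and 18.4) and *Steap3* (12.6 and 12.5) were lower. *Tfr2*, the receptor of liver and red cell precursors, was at 0.1 and 0.2. *Cybrd1*, the ferrireductase of the gut, was listed at 0.0 in both, as was *Acta2*.

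Among 4 genes of export and ferroxidase activity, the ferroxidases *Cp* (32.1 and 51.6) and *Hephl1* (39.1 and 43.7) were well above the exporter *Slc40a1* with which ferroxidases act. *Heph* was at 0.8 and 1.0, and *Hamp*, the hormone that removes ferroportin, at 0.3 and 1.5. The *Hamp* values rest on only about 1.22 and 3.07 estimated reads. Of 7 genes of iron sensing, 5 reached 1 FPKM and *Epas1*, a hypoxia-inducible factor, was highest (22.2 and 25.5). *Fbxl5*, which marks the iron regulatory proteins for degradation, was at 1.4 and 1.8, below both *Aco1* and *Ireb2*.

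Of 11 measured genes of mitochondrial iron import and iron-sulfur cluster assembly, 10 reached 1 FPKM, led by the assembly factors *Isca1* (18.1 and 17) and *Isca2* (12.9 and 22.2). All 9 genes of heme synthesis reached 1 FPKM, from *Alad* (3.3 and 1.7) to *Urod* (33.5 and 19.6). *Alas2*, the red cell form of the first enzyme, was at 6.7 and 7.5 beside the housekeeping form *Alas1* at 8.3 and 9.9. Of 11 genes of heme transport and breakdown, 10 reached 1 FPKM, led by the heme oxygenase *Hmox2* (16.1 and 14.4), whereas the inducible *Hmox1* was at 6.7 and 5.6. The median log2 ratios of the 7 groups between the mice ran from -0.25 for heme transport and breakdown to 0.41 for export, where the latter rests on 2 genes, compared with -0.08 over all genes.

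**Figure D4:**
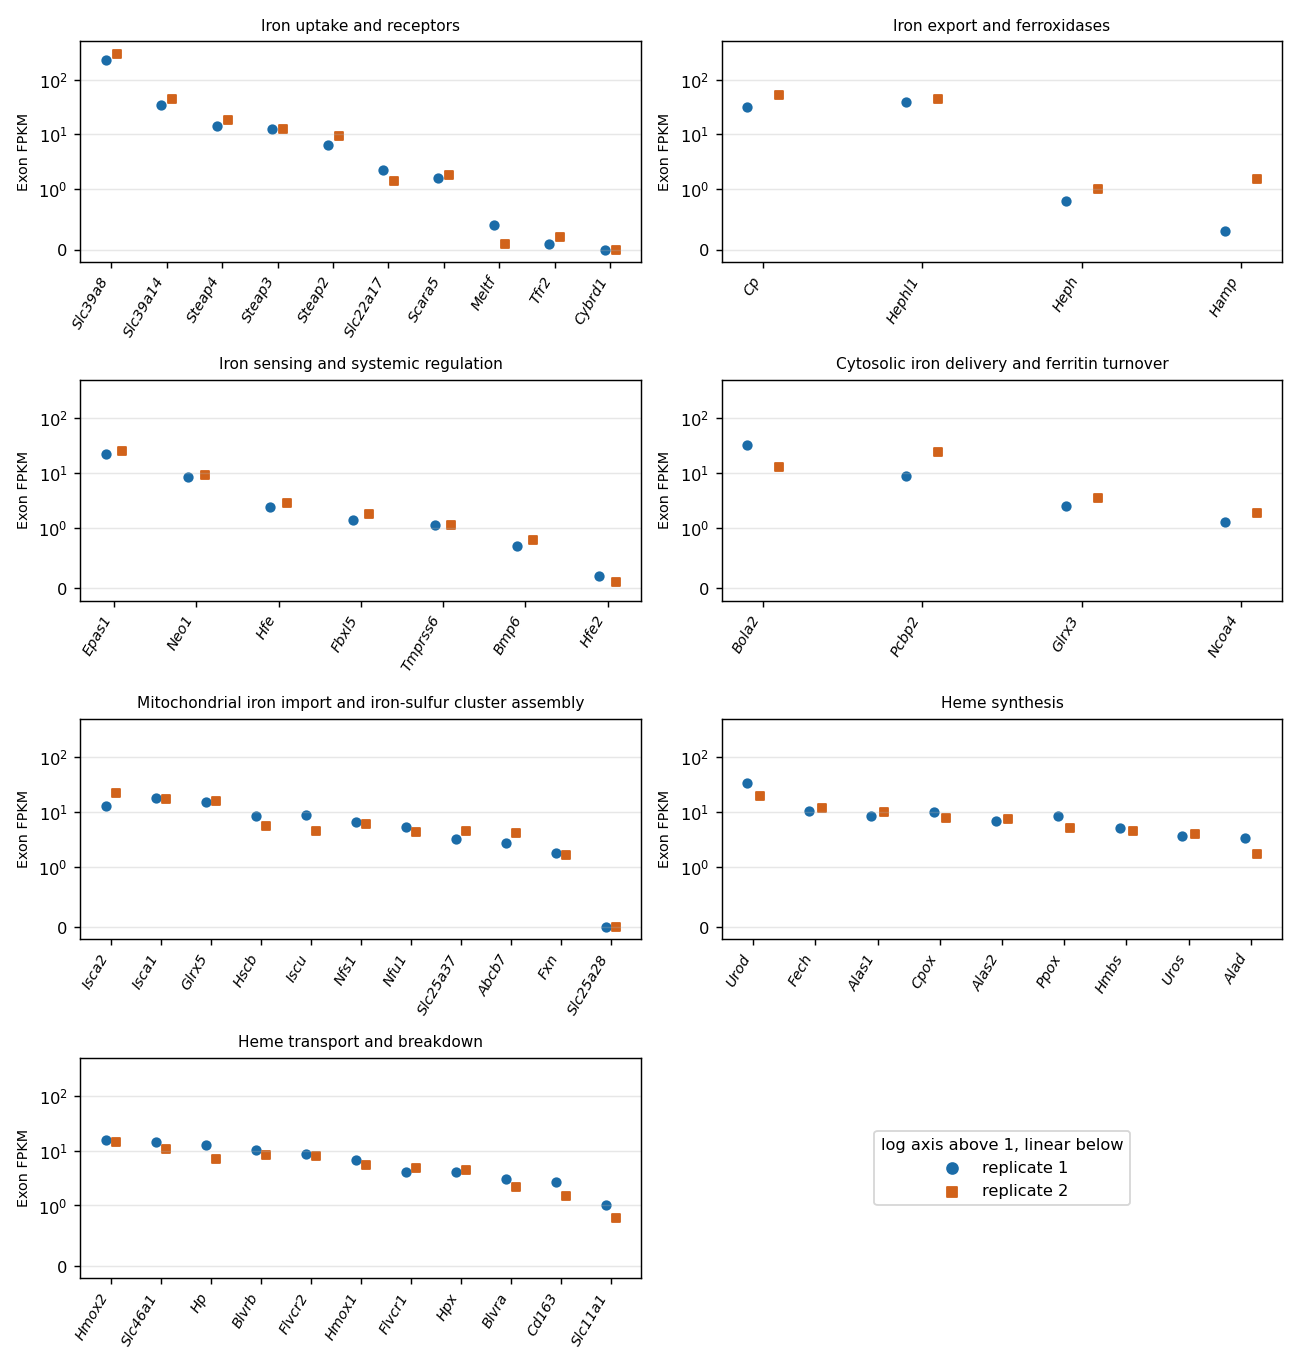
Exon FPKM of 56 other iron and heme genes in 7 groups, with a circle for replicate 1 and a square for replicate 2, on an axis that is logarithmic above 1 and linear below. *Slc39a8* (223.8 and 289.1) is the highest, *Cybrd1* and *Slc25a28* are listed at 0.0, and *Pcbp2* and *Bola2* are the 2 genes with at least 1 FPKM that differ by more than 2-fold on the FPKM + 1 scale.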

How the data were processed

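Libraries of total RNA, stranded by kit, were made from L10 mammary tissue of wt/Wap-Tbrg4 mice. The authors aligned reads to mm10 (STAR), merged the exons of each UCSC gene across its transcripts, defined introns as the gaps, obtained counts (HTSeq) and from them the deposited FPKM values (DESeq2), given with 1 decimal. Tool versions, the total behind the scaling and how reads matching several places were handled are not given in the sources used here.

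FPKM were used as deposited. Genes without a usable or unique symbol were left out (35 of 20550). Positions, lengths and GC content came from curated RefSeq transcripts on GRCm38.p6, the same assembly as mm10, and matched 98.2% of symbols. None of the 10 genes overlapped another curated gene. The value of 1 read was taken as the step of which most low values on introns of 80 to 260 bp were whole multiples within rounding, 0.100 FPKM times kilobase in replicate 1 (13 of 15 introns) and 0.199 in replicate 2 (7 of 9). *Zbtb9* and *Ovca2* were the exceptions in both, and 4 higher values were not used. Read numbers are estimates, since the lengths used by the authors may differ, and their intervals cover counting error only.

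Levels are means ± SD over the 2 samples, and no test was made. The mice were compared as log2(FPKM + 1) for exons, over genes with a mean of at least 1, and log2(FPKM + 0.1) for introns, over genes with a mean of at least 0.5. The GC fit was a lowess over 30% of genes and was tested on simulated data. Copies were found by aligning coding sequences to the genome with minimap2, over at least 50% of the length at an identity of at least 95%. All 10 genes were named, and of the other lists the highest gene of each and those past 2-fold; others were named after their values were seen. The genes and lists were chosen with earlier results of these data known. Of the listed symbols, *Hjv* was matched as *Hfe2*, and *Pcbp1*, *Ftmt*, *Hba-a1* and *Hbb-bt* had no match. Python 3.11.15 with numpy 2.4.6, pandas 2.3.3, statsmodels 0.14.6, scipy 1.17.1 and matplotlib 3.10.9, and minimap2 2.31 were used.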

Additional observations from a re-analysis of the deposited data

How the results depend on the processing

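The scaling, the mean, the pseudocount, the filter and the GC content were varied. Rescaling to a common sum was applied to the levels and not to the log2 ratios between the mice, which were only centred. Leaving out a replicate, with 2 mice, returns the value of the other mouse and shows no stability. The share of *Trf* became 19.2% without the 7 milk protein genes. The median log2 ratio of the iron handling genes between the mice, -0.11, became -0.0037 without the filter, 0.21 with a mean of at least 10 FPKM and 0.024 with the GC fit removed, so its sign is not resolved. Centring on the median of all genes put 1 of the 9 genes, *Ireb2* (1.02), past 2-fold, beside 529 of the 9845 genes tested. In the other settings tried for the log2 ratios, 0 of the iron handling genes were past 2-fold. Over all genes, 581 of 9845 were past 2-fold in the main setting (5.90%) and 1102 at a pseudocount of 0.1. At a minimum mean of 10 FPKM it was 231 of only 3112 genes, and with the GC fit removed 186 of 9725 (1.91%). Leaving out replicates gave from 2.61% to 7.42% for the share of *Trf*, 100.8 to 111.4 for the *Trf* to *Ltf* ratio, 131.7 to 141.0 for the median exon to intron ratio, and 8 to 9 genes at 10 FPKM. Besides these counts, the GC fit moved the log2 ratios of 8 single genes, *Slc11a2* being the exception among the 9. The GC fit changed the sign for 2 of these genes, *Ftl1* (-0.60 to 0.024) and *Aco1* (-0.11 to 0.022). Rescaling to a sum of 1000000 moved 5 levels of single genes by more than their SD, among them *Aco1* on exons (28.7 to 25.2). The other levels stayed within their SDs, which does not make them stable. On exons *Ireb2* (22.2 to 16.98) and *Tfrc* (102.95 to 81.78) fell by more than *Aco1* relative to their size, but had larger SDs. Rescaling left 7 rather than 8 genes at 0.5 FPKM on introns, and a minimum of 0.5 rather than 1 FPKM raised the other iron genes counted from 47 to 51. No paired analysis was possible because all RNA-seq samples belong to 1 group. Rounding to 1 decimal limits the intron values of *Ltf* and *Slc40a1*.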

Other observations

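The genes that flank *Trf* on chromosome 9 were read after the values of *Trf* were seen. *Srprb*, a subunit of the signal recognition particle receptor whose gene lies 6.81 kb away, had an exon FPKM of 40.9 in replicate 1 and 28.6 in replicate 2, so that *Trf* exceeded it 1548-fold and 1631-fold. On introns, where *Srprb* was at 0.8 and 1.0, *Trf* exceeded it 138.5-fold and 90.7-fold. On the other side, *1300017J02Rik*, 20.2 kb away, was at 2.1 and 3.3. *Rab6b* (1.0 and 0.9), *Topbp1* (4.7 and 5.5), *Slco2a1* (6.8 and 6.6) and *Cdv3* (12.8 and 13.8) lie farther out.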
